A study of Mus musculus with 3 samples.

Results

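The cells described here are brain microglia with high transcript counts of Lpl, Tcim, Emp3 and Ifi27l2a, taken from single-cell RNA sequencing of mice that carry human CD33 isoforms. A cell was a member when the UMIs (unique molecular identifiers, which count captured transcripts) of these 4 rule genes summed to at least 4 and to at least 5 per 10000 UMIs of the cell, after cells rich in border macrophage, monocyte, chemokine or interferon-response transcripts had been set aside. The rule found 450 members among 16911 passing cells (2.66%), of 18340 cell barcodes in all. There were 181 members in hCD33m, 111 in hCD33M and 158 in Control, and they were profiled against 4351, 3668 and 3793 other passing cells with at least 2000 UMIs. Their levels of the 4 rule genes were what chose them and are given as a description.

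The study asked how the 2 isoforms of human CD33 act in microglia, and the libraries analysed here were 1 per genotype, from microglia of 8 week old mice. A repeat of the sequencing that the study describes was not used here. hCD33m and hCD33M mice carried the short or the long isoform behind a floxed stop in the Rosa26 locus, opened in Cx3cr1-expressing cells by Cx3cr1Cre, with GFP from the same transcript, on a C57BL/6 background. Control mice were labelled wild type. The study's wild type mice carried Cx3cr1Cre without a CD33 allele in its phagocytosis and RNAscope experiments, and this was not stated for the sequenced mice. Each library pooled mice of 1 genotype, and the hCD33m line came from 1 injected embryonic stem cell clone. Brains were processed cold with transcription and translation inhibitors, and cells were sorted for CD11b, CD45 and Cx3cr1. The hCD33m library is labelled female and the others male, while the study names male mice of each genotype for the sequencing. The Y-linked gene Ddx3y stood at 94.9 CPM (the UMIs of a gene scaled to all UMIs of the cells summed) in hCD33m, 105 in hCD33M and 95.3 in Control. Xist, another sex-specific gene, had 0 UMIs in hCD33m, 0 in hCD33M and 3 in Control, so by both genes the hCD33m library resembled the libraries labelled male. The libraries held between 32272657 and 40629705 UMIs in 5920 to 6257 barcodes, and the barcodes that libraries shared (4 to 12 a pair) included no member.

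CD33 is a sialic acid-binding receptor of myeloid cells, and its short isoform lacks the ligand-binding domain. Microglia are the resident macrophages of the brain, recognised by genes such as P2ry12, Tmem119 and Sall1. In ageing, demyelination and neurodegeneration, part of the microglia lower these genes and raise others such as Apoe, Lpl and Lgals3, and a separate state carries interferon-stimulated genes.

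Each rule gene has a different role. Lpl encodes lipoprotein lipase, which releases fatty acids from lipoprotein triglycerides, and lies at chr8:68880491-68907448 on the plus strand (mm10, GENCODE M21). Tcim encodes a small regulator of transcription and lies on the minus strand at chr8:24437180-24438984. Emp3 encodes a membrane protein of the PMP22 family and lies on the minus strand at chr7:45918023-45921404. Ifi27l2a is an interferon-induced gene for a small hydrophobic protein and lies on the minus strand at chr12:103442167-103443680. The annotation lists all 4 as protein coding.

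Ifi27l2a supplied the most rule-gene UMIs. Summed over members, Ifi27l2a stood at 428 CPM in hCD33m, 469 in hCD33M and 579 in Control members, against 18.1, 30.5 and 26.0 CPM in the other cells of the same libraries. Emp3 stood at 322, 325 and 301 CPM in hCD33m, hCD33M and Control members, against 46.7, 42.4 and 43.4 CPM in other cells. Lpl stood at 177, 163 and 272 CPM in hCD33m, hCD33M and Control members, against 10.5, 9.94 and 13.6 CPM in other cells. The Control value for Lpl includes 1 member with 90 Lpl UMIs. Tcim stood at 170, 72.1 and 61.3 CPM in hCD33m, hCD33M and Control members, against 11.8, 7.69 and 10.1 CPM in other cells, and was the rule gene whose level in members differed most between libraries.

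Few members carried all 4 genes. A UMI of Ifi27l2a was found in 306 of 450 members, one of Emp3 in 297, one of Lpl in 165 and one of Tcim in 124. In other cells a UMI of Ifi27l2a was found at a rate of 8.57% in the hCD33m library, 13.1% in hCD33M and 11.1% in Control. In 138 members 1 rule gene was found, in 193 members 2, in 108 members 3 and in 11 members all 4. Emp3 and Ifi27l2a were found together in 193 members, Lpl and Emp3 in 115 and Lpl and Tcim in 36. Many members lay close to the threshold. The median sum was 6 UMIs in each library, 117 members had exactly 4, and 482 passing cells had 3. A further 348 cells had 4 or more rule-gene UMIs at under 5 per 10000, and their median depth was 19329.5 UMIs in hCD33m, 22409 in hCD33M and 18847 in Control, against 5649, 6491 and 5626.5 UMIs in members.

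The classes set aside also held these transcripts. Of the monocyte-rich cells 60 of 67 (89.6%) met the 4-gene rule, of the border macrophage-rich cells 73 of 198 (36.9%), of the interferon-rich cells 54 of 183 (29.5%) and of the chemokine-rich cells 37 of 373 (9.92%). Ifi27l2a stood at 2039 CPM and Emp3 at 520 CPM in the monocyte-rich cells, both higher than in members of any library.

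Members made up 3.21% of passing cells in hCD33m (181 of 5632, exact 95% interval 2.77 to 3.71), 2.0% in hCD33M (111 of 5560, 1.65 to 2.40) and 2.76% in Control (158 of 5719, 2.35 to 3.22). Genotypes could not be tested against each other, since each had 1 library here, and the intervals hold only the error of counting. hCD33M had the lowest share, and its interval overlapped that of Control. Among cells with at least 2000 UMIs the shares were 3.97% in hCD33m, 2.89% in hCD33M and 3.97% in Control. When these cells were thinned to 2000 UMIs they were 0.905% in hCD33m, 0.450% in hCD33M and 1.06% in Control. At least 4 rule-gene UMIs were still needed there, which is a stricter limit per UMI. Thinning therefore changed depth and the limit together, and the 2 cannot be told apart. The order of hCD33m and Control differed between settings while hCD33M stayed lowest.

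Most members expressed microglial genes. The sum of 5 microglial genes, among them P2ry12, Tmem119, Sall1 and Cx3cr1, had a median of 160 per 10000 UMIs in hCD33m, 167 in hCD33M and 167 in Control members, against 188, 195 and 198 in other cells. A small group lacked these genes. In 20 members (11 in hCD33m, 3 in hCD33M, 6 in Control) the sum was under 60 per 10000, and in these cells P2ry12 stood at 50.1 CPM and Cst3 at 6066 CPM. Another 14 members (4 in hCD33m, 5 in hCD33M, 5 in Control) had microglial genes and at least 10 UMIs of H2-Aa, H2-Ab1, H2-Eb1 and Cd74, the genes of MHC class II antigen presentation. Together these were 34 of 450 members (7.56%), against 41 of 11812 other cells (0.347%). The limits of 60 and of 10 were set after the data had been seen. No doublet caller was run, and the 14 MHC class II cells had a median depth of 12250 UMIs in hCD33m, 9602 in hCD33M and 9414 in Control.

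**Figure D1:**
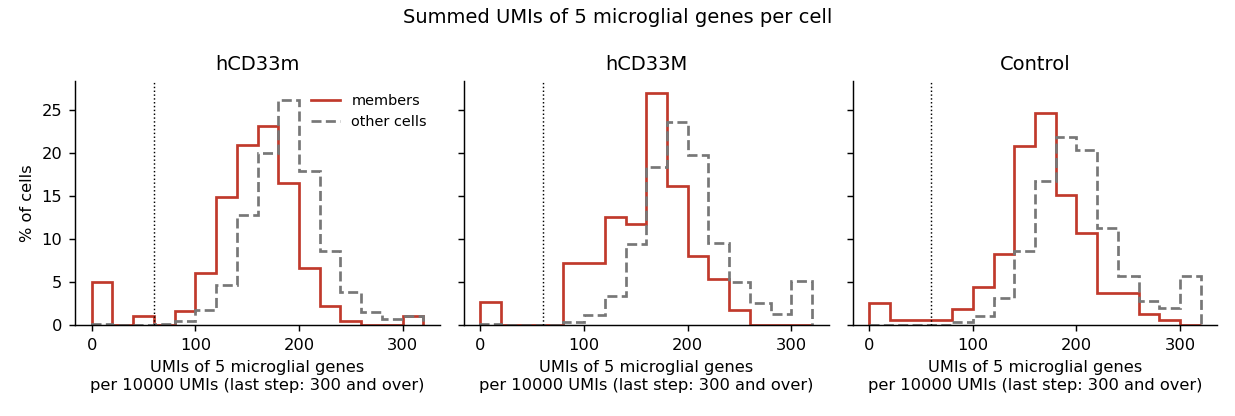
Summed UMIs of 5 microglial genes per 10000 UMIs of a cell (x axis) against the percent of cells (y axis), for members (solid) and other cells with at least 2000 UMIs (dashed) in each library. The dotted line marks 60 per 10000. Members peak to the left of other cells in each library, and 20 of 450 members lie left of the line.

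These 34 cells also held most of the monocyte transcripts found in members. Over all 450 members 681 genes were higher and 381 lower than in other cells among 11973 genes tested, which is 5.69% and 3.18% (edgeR quasi-likelihood test on sums per library with the library as a block, n = 3 libraries, adjusted p of at most 0.05). The 4 rule genes and the genes of the exclusion rule are left out of these counts. H2-Aa, an MHC class II chain, stood at 428, 491 and 567 CPM in hCD33m, hCD33M and Control members, against 26.5, 5.73 and 9.64 CPM in other cells (log2 fold change 5.32 ± 0.16 SE, adjusted p 5.49e-40). Of the 34 cells 26 had at least 10 class II UMIs, the limit that set them apart, so where these transcripts lay follows from that choice. Of genes the limits did not use, the 34 cells held 95.3% of the members' UMIs of Ccr2, a chemokine receptor of monocytes, 98.0% of those of S100a6 and 85.1% of those of Crip1. The 9 tested genes of the monocyte list summed to 233, 143 and 154 CPM in hCD33m, hCD33M and Control members, against 22.2, 14.4 and 16.9 CPM in other cells, and 8 of the 9 were higher. The same comparison was therefore also made for the 416 members with microglial genes and fewer than 10 class II UMIs, against the 11771 other cells that met the same limits. There 6 genes of the monocyte list were tested, so their sum covers fewer genes than the sum over all 450 members. They summed to 19.8, 16.2 and 22.3 CPM in hCD33m, hCD33M and Control members, against 16.1, 13.1 and 15.5 CPM in other cells. Of the 6 tested genes 1, Ms4a4c, was higher (log2 fold change 1.41 ± 0.43, adjusted p 0.0188). It lost this call without hCD33m (adjusted p 0.0512), without Control (0.571) and with DESeq2 (0.175).

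Among the 416 members, 455 genes (3.84%) were higher and 291 (2.45%) lower than in other cells, of 11861 tested. The results that follow are for these members, called microglial members, unless all 450 are named. The rule genes had been chosen with earlier results of these cells known, so the p-values are not independent evidence for the grouping. In this fit edgeR found no variation of the spread from gene to gene beyond that of estimating it, and shared 1 spread over all genes. Neither the p-values nor the SE therefore show that a given gene moved alike in each library or among cells. Fold changes with their SE are given first.

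Genes that define resting microglia were lower. Of 24 homeostatic genes 18 were lower and none higher in microglial members, with a median log2 fold change of -0.20 (the 5 microglial genes of the sum had been used to limit both sides of this comparison), against -0.02 over all genes tested. P2ry12, a purinergic receptor that guides microglial processes, stood at 2448, 2548 and 2467 CPM in hCD33m, hCD33M and Control members, against 3491, 3616 and 3524 CPM in other cells (log2 fold change -0.48 ± 0.03, adjusted p 1.49e-50). Fcrls, an Fc receptor-like gene of resident microglia, stood at 1026, 1313 and 1325 CPM in hCD33m, hCD33M and Control members, against 1754, 2094 and 2130 CPM in other cells (-0.68 ± 0.04). The groups did not overlap for either gene. Slc2a5, a fructose transporter, was lower by the same measure (-0.61 ± 0.06), and P2ry13, Crybb1 and Ltc4s lay between -0.40 and -0.39. Cst3, a secreted protease inhibitor, did not pass the test (-0.01 ± 0.02).

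Genes of the disease-associated state moved the other way. Of 30 tested genes of this list 22 were higher and 1, Serpine2, was lower, with a median log2 fold change of 0.48. Apoe, the main lipid carrier protein of the brain, stood at 1034, 2266 and 2112 CPM in hCD33m, hCD33M and Control microglial members, against 424, 346 and 561 CPM in other cells (2.01 ± 0.04). This rise was uneven between cells, since Apoe was found in 197 of 416 members and 10 of them held 58.7% of its UMIs. Fth1, the ferritin heavy chain, stood at 3136, 3222 and 3247 CPM in hCD33m, hCD33M and Control members, against 2034, 2042 and 2251 CPM in other cells (0.63 ± 0.03). Axl, a receptor tyrosine kinase for apoptotic cells, stood at 34.3, 31.1 and 28.3 CPM in hCD33m, hCD33M and Control members, against 5.05, 4.95 and 6.01 CPM in other cells (2.58 ± 0.23, adjusted p 4.62e-26) and was found in 61 members. Cd52 (0.98 ± 0.05), Lyz2, encoding lysozyme (0.58 ± 0.05), the tetraspanins Cd63 (0.41 ± 0.05) and Cd9 (0.32 ± 0.04) and the protease Ctsb (0.31 ± 0.03) were also higher, whereas Trem2, the receptor needed for this state in mice, did not pass the test (-0.01 ± 0.03). Lgals3 (3.62 ± 0.36) and Spp1 (4.05 ± 0.51) had large folds from 20 and 11 cells, and Spp1 lost its call without the hCD33m library (adjusted p 0.0734).

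Lipid-handling genes beyond Apoe and Lpl did not move as a group. Of 23 tested genes 4 were higher (among them Apoe, Nceh1 and Npc2) and 4 were lower (Lrp1, Abca1, Abcg1 and Mgll), with a median log2 fold change of 0.01. Abca1 and Abcg1, the exporters of cellular cholesterol, were both lower (-0.33 ± 0.06 and -0.33 ± 0.10). Npc2, a lysosomal cholesterol-binding protein, was higher (0.32 ± 0.04).

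Interferon-stimulated genes were higher in members, which had been chosen in part on Ifi27l2a, itself an interferon-induced gene. The list is therefore not independent of the choice. Cells rich in Ifit1, Ifit2, Ifit3, Rsad2 and Isg15 had been set aside. Of 28 listed genes 21 were higher and none lower in microglial members, with a median log2 fold change of 1.07. Ifitm3, which encodes a membrane protein that restricts virus entry, stood at 98.3, 102 and 148 CPM in hCD33m, hCD33M and Control members, against 11.5, 13.2 and 16.0 CPM in other cells (3.12 ± 0.13, adjusted p 5.03e-126). Bst2, or tetherin, stood at 260, 324 and 355 CPM in hCD33m, hCD33M and Control members, against 140, 169 and 164 CPM in other cells (1.01 ± 0.06). Each member library lay above every library of other cells for both genes. Lgals3bp, a secreted galectin-binding protein, stood at 213, 276 and 252 CPM in hCD33m, hCD33M and Control members, against 102, 122 and 120 CPM in other cells (1.13 ± 0.07). Ifi204 (2.17 ± 0.16), Oasl2 (2.85 ± 0.32), the transcription factor Irf7 (2.37 ± 0.35) and Slfn2 (1.40 ± 0.11) were higher as well. Ifi27 (-0.03 ± 0.08) and Parp14 (0.29 ± 0.11) did not pass.

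Promoters of the listed interferon-stimulated genes were searched for GAAANNGAA, a pattern of the interferon response type, on both strands from 250 bases before to 50 after the RefSeq start (GRCm38.p6). It was present in 8.56% of 32851 such windows. Of the 28 listed genes 19 had a window and 10 of them held the pattern, and of the 21 that were higher 14 had a window and 6 held it. Of the rule genes Emp3 had a window, and it held neither this pattern nor the AP-1 pattern TGANTCA (in 7.81% of all windows), the ETS core GAGGAA (28.3%) or the MITF-type pattern TCANGTGA (4.18%), each searched on both strands. These genes were looked at after their values had been seen, no test was made, and a match of letters is not a bound site. These stretches, chosen to show what such a match looks like beside genes that rose in members, are written 5′ to 3′ on the strand of the gene with 1 match in capitals. Those of Bst2 and Oas1a each hold another match that overlaps it and is not marked. It begins 124 bases before the start for Bst2 and 14 for Oas1a.
Ifitm3, chr7:141010723-141010752, minus strand, match 2 bases after the start: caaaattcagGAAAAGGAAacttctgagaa
Ifi207, chr1:173741831-173741860, minus strand, match 41 bases before the start: cctagccaggGAAATCGAAaattaagaaca
Bst2, chr8:71537583-71537612, minus strand, match 130 bases before the start: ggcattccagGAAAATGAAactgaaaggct
Oas1a, chr5:120907526-120907555, minus strand, match 20 bases before the start: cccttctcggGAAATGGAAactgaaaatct

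MHC class I genes were higher. Of 17 tested genes of the antigen presentation list 7 were higher and none lower, with a median log2 fold change of 0.44. H2-D1, an MHC class I heavy chain, stood at 951, 1160 and 1181 CPM in hCD33m, hCD33M and Control microglial members, against 514, 636 and 677 CPM in other cells (0.88 ± 0.04). H2-K1 (0.66 ± 0.04), H2-Q7 (2.0 ± 0.20) and the shared light chain B2m (0.54 ± 0.03) were higher too. The class II genes had been used to limit both these members and the other cells, so their differences here are bounded by that choice and do not compare class II with class I. Cd74, the class II invariant chain, stood at 56.8, 60.9 and 55.7 CPM in hCD33m, hCD33M and Control members, against 18.3, 14.8 and 18.8 CPM in other cells (1.75 ± 0.15), while H2-Aa (0.77 ± 0.79), H2-Ab1 and H2-Eb1 did not pass.

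Genes of the S100, annexin and cytoskeleton list were higher in 12 of 21 cases and lower in none, with a median log2 fold change of 0.70. Capg, an actin-capping protein, stood at 71.2, 70.4 and 81.0 CPM in hCD33m, hCD33M and Control microglial members, against 28.5, 19.7 and 24.7 CPM in other cells (1.62 ± 0.13). Lsp1, an actin-binding protein of leukocytes, stood at 164, 100 and 117 CPM in hCD33m, hCD33M and Control members, against 72.8, 49.6 and 60.4 CPM in other cells (1.09 ± 0.10). Neither gene overlapped between the groups. Anxa5 (1.10 ± 0.14), Vim (2.36 ± 0.39) and Tmsb10 (0.74 ± 0.08) were higher, and Pmp22, a relative of Emp3, did not pass (0.13 ± 0.05). Of 14 tested genes of activation in ageing and myelin 10 were higher and none lower (median 1.27), among them Cd72 (1.96 ± 0.22), Gpr65 (1.41 ± 0.18) and Itgax (2.06 ± 0.29).

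Other lists also held called genes, where 3.84% of all tested genes were higher and 2.45% lower. Of 13 cytokine and chemokine genes 4 were higher and 1 lower (median log2 fold change 0.24). Of 13 glycolysis genes 4 were higher and none lower (median 0.11), and of 12 cell cycle genes 5 were higher and none lower (median 0.70). Csf1, the growth factor of microglia, was higher (0.92 ± 0.21) and lost its call without hCD33m (adjusted p 0.0574). Gapdh was higher (0.28 ± 0.05). Mki67, a proliferation marker, had 28 UMIs in 8 members, and Top2a had 25 UMIs in 3 members, turning to -0.48 without hCD33m. Beside Ms4a4c of the monocyte list, of the marker lists of other brain and blood cells 1 gene of the T and NK cell list was higher in microglial members. In the astrocyte, endothelial and choroid plexus lists 1 gene each was lower. No tested gene passed in the border macrophage (3 tested of 10 listed), neutrophil (2 of 9), B cell (3 of 6), dendritic cell (1 of 6), neuron (2 of 6) and oligodendrocyte (4 of 7) lists. With so few genes tested, these lists say little about the absence of such transcripts. Border macrophage genes had also been limited in both members and other cells by the rule. No red blood cell gene was abundant enough to be tested.

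**Figure D2:**
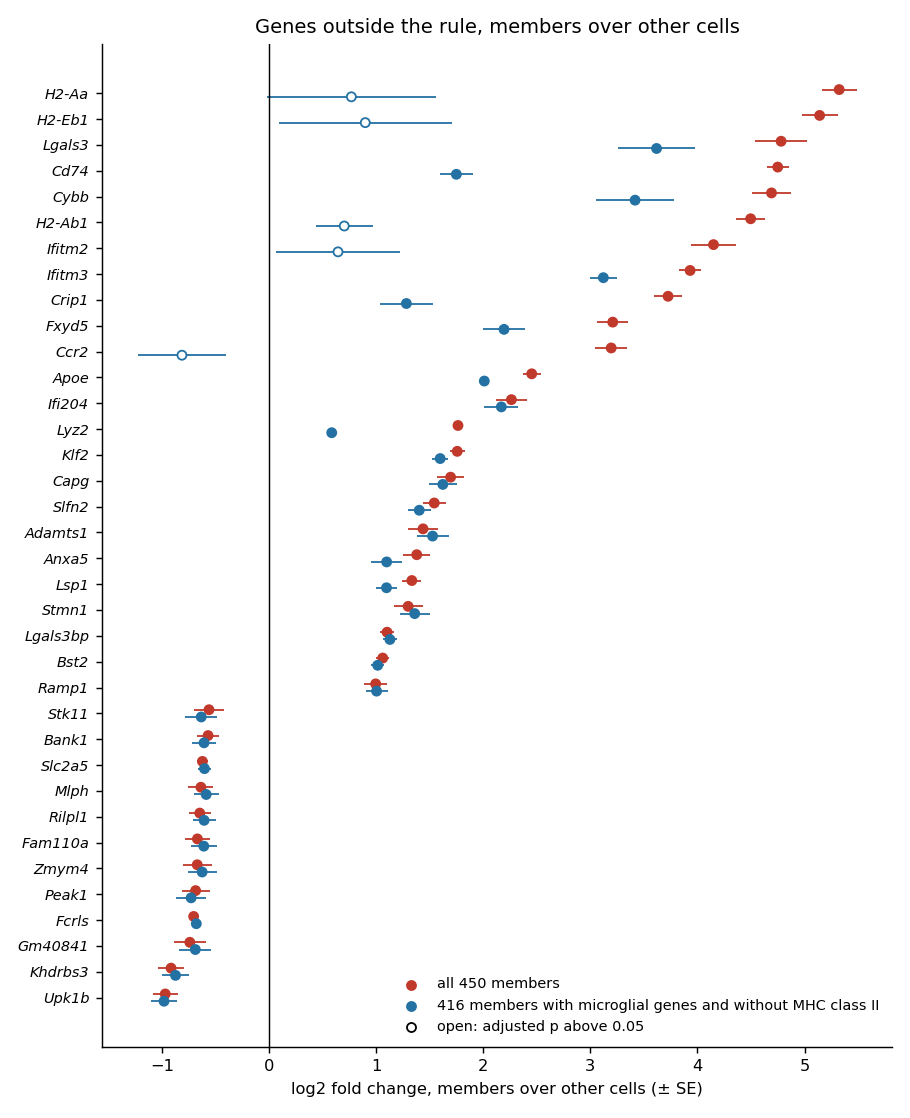
Log2 fold change with its SE (x axis) of the genes with the largest and smallest fold changes (y axis) among genes with at least 50 CPM, for all 450 members (red) and the 416 microglial members (blue) over other cells. Open points had an adjusted p above 0.05, as for H2-Aa and Ccr2 in the 416 members, whereas Ifitm3, Apoe and Klf2 stay above 1.5 in both.

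Among the other genes with the largest fold changes, microglial members were higher for Adamts1, a secreted metalloprotease (1.52 ± 0.15), Stmn1, a microtubule regulator of the cell cycle list (1.36 ± 0.14, with 49.7% of its UMIs in 10 cells), and Ramp1, a subunit of the CGRP receptor (1.00 ± 0.10). They were lower for Upk1b, a uroplakin, which stood at 51.4, 52.8 and 34.4 CPM in hCD33m, hCD33M and Control members, against 104, 86.4 and 84.8 CPM in other cells (-0.98 ± 0.12, adjusted p 4.82e-14). Khdrbs3 (-0.88 ± 0.13), Peak1 (-0.73 ± 0.14), Bank1 (-0.61 ± 0.11) and Rilpl1 (-0.61 ± 0.11) were lower as well. Each of these genes moved in the same direction in all 3 libraries.

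Whether the 4 rule genes belong together was asked by leaving out each in turn. Cells were chosen on the other 3 genes by the same limits, and the gene left out was read in the edgeR fit. These values are for all cells chosen so, without the limits on microglial and class II genes unless said. Ifi27l2a stood at 176, 200 and 232 CPM in the chosen cells of hCD33m, hCD33M and Control, against 30.8, 41.3 and 44.7 CPM in the other cells (log2 fold change 2.43 ± 0.12). With the limits it stood at 156, 112 and 228 CPM in the chosen cells of hCD33m, hCD33M and Control, against 28.6, 40.2 and 43.1 CPM in the other cells (2.21 ± 0.14), so the hCD33M value was the one that moved most. Emp3 stood at 189, 249 and 162 CPM in the chosen cells of hCD33m, hCD33M and Control, against 54.4, 46.8 and 50.9 CPM in the other cells (2.01 ± 0.11). With the limits it stood at 127, 169 and 150 CPM in the chosen cells of hCD33m, hCD33M and Control, against 53.0, 46.5 and 49.7 CPM in the other cells (1.59 ± 0.12). Lpl stood at 45.7, 60.5 and 74.9 CPM in the chosen cells of hCD33m, hCD33M and Control, against 15.9, 13.1 and 21.7 CPM in the other cells (1.86 ± 0.16, adjusted p 1.35e-28). Tcim had the smallest difference, with 37.0, 32.0 and 28.2 CPM in the chosen cells of hCD33m, hCD33M and Control, against 17.2, 8.79 and 11.6 CPM in the other cells (1.40 ± 0.20, adjusted p 2.52e-10). With the limits the fold changes were 1.83 ± 0.18 for Lpl and 1.46 ± 0.21 for Tcim. Each gene was higher in the chosen cells of all 3 libraries, and over 9 alternative settings the largest adjusted p of any of the 4 was 0.0217, for Tcim. The genes had been picked from these same cells, so this describes how they were shared between cells of these libraries.

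**Figure D3:**
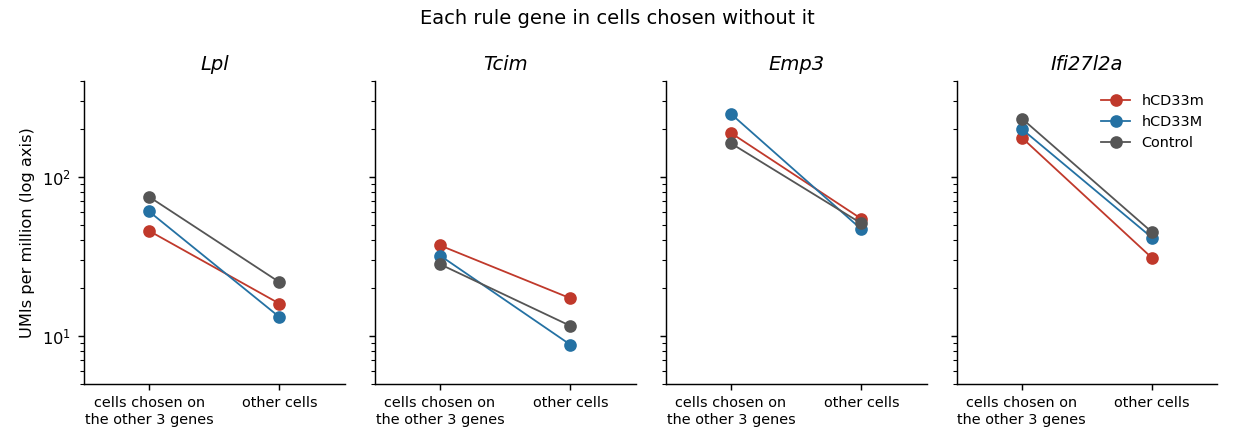
Level of each rule gene (y axis, CPM, log axis) in all cells chosen on the other 3 rule genes, without the limits on microglial and class II genes, and in the other cells (x axis), with 1 line per library. Every line falls to the right, and the 3 libraries lie close together for Ifi27l2a and Emp3.

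Members, here all with at least 2000 UMIs, also lay nearer to each other by genes the rule did not use. With each cell thinned to 2000 UMIs and the rule genes removed, members made up on average 9.47% of the 20 nearest cells of a member in hCD33m, 8.58% in hCD33M and 9.46% in Control, where members were 3.97%, 2.89% and 3.97% of the cells. The shares were 2.38, 2.97 and 2.38 times those of members in hCD33m, hCD33M and Control. For microglial members the averages were 6.97%, 5.99% and 7.07%, against 3.67%, 2.69% and 3.74% of the cells. The members were not a closed cluster, since 58 of 180 in hCD33m, 41 of 109 in hCD33M and 46 of 157 in Control had no member among the 20 nearest cells.

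The 416 microglial members differed by which rule gene led, that is, had the most UMIs. Ifi27l2a led in 185 members, Emp3 in 96, Lpl in 51 and Tcim in 45, and 39 were tied. These groups are a description with no test, and the cells of a library are not replicates. Tcim led more often in hCD33m. Among all 450 members it led in 32 of 181 in hCD33m (17.7%, exact 95% interval 12.4 to 24.03), in 7 of 111 in hCD33M (6.31%, 2.57 to 12.6) and in 6 of 158 in Control (3.80%, 1.41 to 8.08).

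Members led by Ifi27l2a had the highest sum of the interferon list. The interferon list summed to 3745, 4232 and 3996 CPM in hCD33m, hCD33M and Control members led by Ifi27l2a, and to between 2055 and 2914 CPM in members led by another gene or tied. In other cells it summed to 1844, 2146 and 2124 CPM in hCD33m, hCD33M and Control. Control members led by Tcim, at 2055 CPM, did not exceed this. Ifitm3 was found in 93 of 185 members led by Ifi27l2a, at 215, 165 and 237 CPM in hCD33m, hCD33M and Control. In the 96 members led by Emp3, Ifitm3 stood at 15.6, 25.3 and 31.9 CPM in hCD33m, hCD33M and Control. Bst2 and Lgals3bp followed the same order, with Bst2 at 390, 413 and 492 CPM in hCD33m, hCD33M and Control members led by Ifi27l2a and at 171, 184 and 187 CPM in those led by Emp3. Rtp4, a chaperone for membrane receptors, was found in 59 of 185 members led by Ifi27l2a and in 9 of 96 led by Emp3.

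Members led by Lpl had the highest sum of the disease-associated list in each library. It summed to 37851, 43262 and 42908 CPM in hCD33m, hCD33M and Control members led by Lpl, and to between 25128 and 33091 CPM in members led by another gene or tied. In other cells it summed to 25276, 25244 and 27021 CPM in hCD33m, hCD33M and Control. Tied hCD33M members, at 25128 CPM, did not exceed this. Those led by Emp3 (25625) or Tcim (25958) in hCD33M and by Emp3 in Control (27615) lay near it. Without Apoe, whose UMIs lay in few cells, the list summed to 36541, 33791 and 32326 CPM in hCD33m, hCD33M and Control members led by Lpl, and to between 24942 and 29595 CPM in the other members. Cd63 stood at 1255, 922 and 928 CPM in hCD33m, hCD33M and Control members led by Lpl, against 440, 499 and 438 CPM in those led by Ifi27l2a. Ctsb, a lysosomal protease, stood at 3307, 2615 and 2599 CPM in hCD33m, hCD33M and Control members led by Lpl, against 1824, 1860 and 1670 CPM in those led by Ifi27l2a. Both genes were higher in each Lpl-led library than in any library of the other 3 leading genes. Lgals3, a galectin of phagocytic microglia, was found in 11 of 51 members led by Lpl, at 182, 75.2 and 95.7 CPM in hCD33m, hCD33M and Control, and at no more than 7.78 CPM in members led by another rule gene. Axl was found in 18 of 51 members led by Lpl and in 10 of 96 led by Emp3. Apoe stood at 1309, 9471 and 10582 CPM in hCD33m, hCD33M and Control members led by Lpl, where 5 cells held 72.1% of its UMIs, so its level rested on few cells.

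Members led by Emp3 had the highest level of Klf2, a Krüppel-like transcription factor, of the 4 leading groups in each library. Klf2 stood at 728, 412 and 155 CPM in hCD33m, hCD33M and Control members led by Emp3, against 357, 210 and 23.4 CPM in those led by Ifi27l2a. Lsp1 stood at 245, 139 and 164 CPM in hCD33m, hCD33M and Control members led by Emp3. Egr1, an immediate early transcription factor, was found in 35 of 45 members led by Tcim, at 873, 551 and 245 CPM in hCD33m, hCD33M and Control, against 586, 337 and 85.6 CPM in members led by Ifi27l2a. Of the 45 members 32 were in hCD33m, 7 in hCD33M and 6 in Control, so the hCD33M and Control levels rest on few cells. Egr1 was highest in hCD33m among other cells too, at 681, 371 and 132 CPM in hCD33m, hCD33M and Control without the limits. P2ry12 was found in every microglial member of all 4 leading groups, at levels from 1937 to 3114 CPM.

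**Figure D4:**
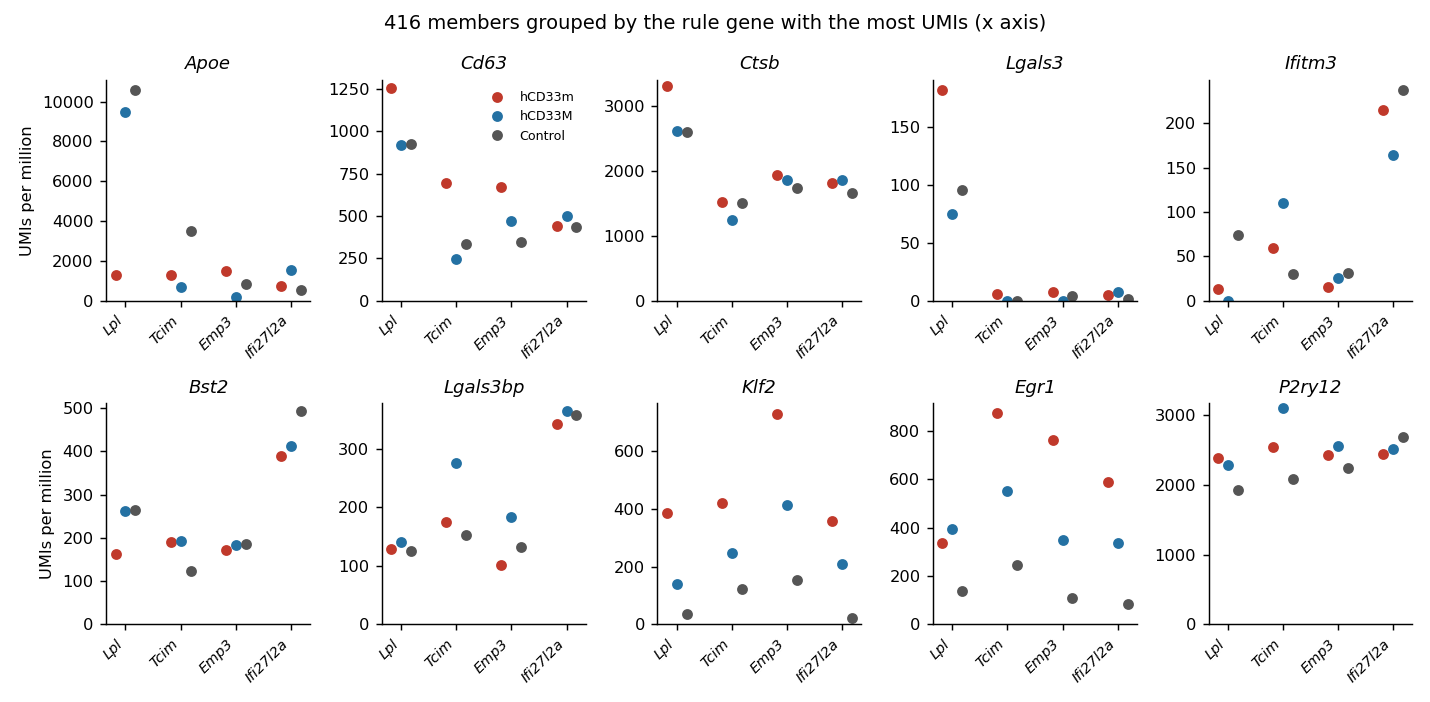
Level of 10 genes (y axes, CPM) in the microglial members led by each rule gene (x axis), with 1 point per library. Ifitm3, Bst2 and Lgals3bp are highest where Ifi27l2a led, Cd63, Ctsb and Lgals3 where Lpl led, and Klf2 where Emp3 led, while P2ry12 stays between 1937 and 3114.

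Klf2 stood apart from the other early response genes. Of 19 listed immediate early genes 3 were higher in microglial members (Klf2, Klf6 and Fos) and 1 was lower (Rhob), with a median log2 fold change of -0.03. Klf2 stood at 453, 248 and 69.8 CPM in hCD33m, hCD33M and Control members, against 168, 75.8 and 19.0 CPM in other cells (1.60 ± 0.07). It was higher in members within each library, but its level differed so much between libraries that over all 450 members the difference did not pass without the library block (adjusted p 0.193). Klf6 was higher by 0.41 ± 0.06 in all 3 libraries and Fos by 0.26 ± 0.06, with Fos not higher in members of hCD33M, whereas Egr1 (-0.06 ± 0.06), Klf4 (0.09 ± 0.13) and Fosb (-0.08 ± 0.08) did not pass.

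Between genotypes, 1 library each, genes were counted by a rule of size and not by a test: at least 1.5-fold, an exact 95% interval without 1 and at least 20 CPM in 1 of the 2 libraries. Among all 450 members 229 of 6936 genes were higher (3.30%) and 182 lower (2.62%) in hCD33m over Control. In simulated counts of this pair, 75 of 6623 genes set to be unchanged passed as higher and 98 as lower. Counting error alone thus passes part of such genes. In hCD33M over Control 228 of 6926 were higher (3.29%) and 183 lower (2.64%), and in hCD33m over hCD33M 169 of 6905 were higher (2.45%) and 166 lower (2.40%). These ratios cannot be told apart from differences between libraries, and the ratio of a named gene is given beside its level or ratio in other cells. The hCD33m and hCD33M ratios over Control share the Control library.

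Immediate early genes led the ratios over Control. Of 17 measured genes of the list in microglial members 14 were higher and none lower in hCD33m over Control, with a median log2 ratio of 1.39, against 1.27 in other cells. In hCD33M over Control 9 of 16 were higher (median 0.90, against 0.82 in other cells), and in hCD33m over hCD33M 9 of 17 were higher (median 0.75, against 0.54 in other cells). Klf4, a relative of Klf2, stood at 138 CPM in hCD33m and 10.2 CPM in Control among all 450 members, a log2 ratio of 3.76 (95% interval 2.88 to 4.79), and the ratio in other cells was 3.43. Among all 450 members Klf2 stood at 491 CPM in hCD33m and 74.3 CPM in Control, a log2 ratio of 2.72 (2.39 to 3.08), and the ratio in other cells was 3.15. Fos had a log2 ratio of 2.54 (2.25 to 2.84) in all members and 3.22 in other cells, and Egr1 one of 2.60 in all members and 2.37 in other cells. For each of these genes hCD33m exceeded Control both among members and among other cells. Of the homeostatic list no gene passed the size rule in any of the 3 ratios.

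**Figure D5:**
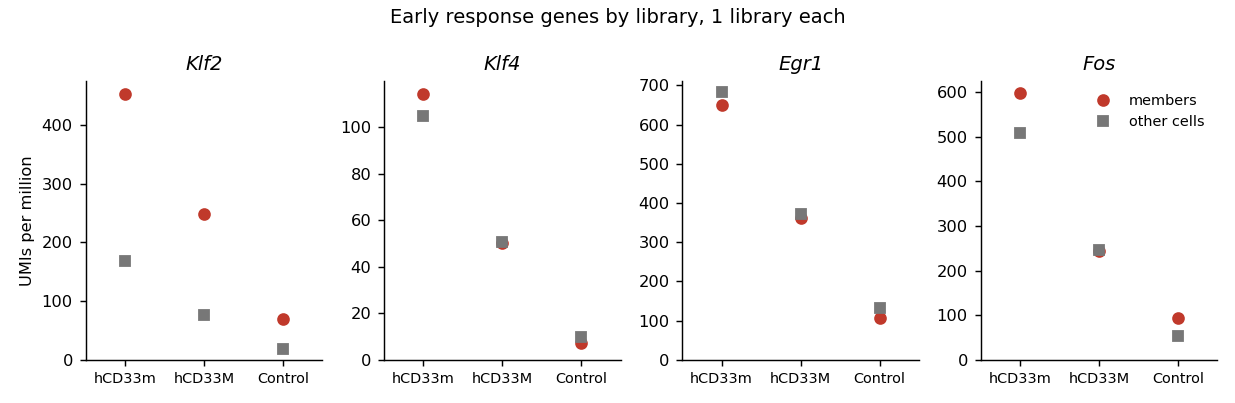
Level of 4 early response genes (y axes, CPM) in microglial members (circles) and other cells (squares) of each library (x axis). All 4 are highest in hCD33m and lowest in Control in both kinds of cell, and members lie well above other cells for Klf2.

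Other large ratios, again among all 450 members, were mixed. Gm47283 had 11 UMIs in hCD33m and 72 in Control (log2 ratio -2.88, against -3.09 in other cells), and Mid1 had 25 UMIs in hCD33m and 58 in Control (-1.39, against -1.28 in other cells), so both differed as much outside the members. Uba1, an enzyme of ubiquitin activation, had 35 UMIs in hCD33m and 71 in Control members (-1.19, interval -1.82 to -0.59), while its ratio in other cells was -0.04. S100a4 had 84 UMIs in hCD33m and 12 in hCD33M members (2.24, interval 1.36 to 3.25, against 1.22 in other cells). Of its UMIs in members 93.8% lay in the 34 cells with few microglial genes or with MHC class II. Ccl5, a chemokine, had 10 UMIs in hCD33m and 41 in 3 hCD33M members, 25 of them in 1 cell (-2.60, interval -3.77 to -1.58, against -0.53 in other cells). Ly6a, an interferon-stimulated surface protein, had 23 and 47 UMIs in hCD33m and hCD33M members (-1.60, interval -2.39 to -0.85, against -0.68 in other cells). Igkc, an immunoglobulin light chain gene, had no UMI in hCD33M members and 60 in Control members, and none in other cells of hCD33M or Control. All 60 lay in 1 cell, which was not a microglial member, and microglial members had none in any library.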

How the data were processed

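Microglia were sequenced with the 10x Genomics 3′ assay, and 1 library per genotype was analysed. The authors aligned reads to mm10 with Cell Ranger and deposited counts of UMIs per gene and cell, not normalized, imported with Seurat. Human CD33 itself was not analysed here. Cells had over 200 and at most 8000 genes, at most 10% mitochondrial UMIs, under 5 UMIs of each of the border macrophage, monocyte and chemokine gene sums and under 4 of the interferon sum. No doublet caller was run.

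Counts were summed per library for members and for other cells and tested with edgeR 4.0.16 (quasi-likelihood, TMM, Benjamini-Hochberg adjustment, R 4.3.3), with the library as a block because both sums of a pair come from the same pooled mice. DESeq2 1.42.0, thinned cells, depth-matched cells and other limits were the alternatives. Genotype ratios have exact conditional binomial 95% intervals, which cover counting error only. The code was tested on simulated data. Python 3.11.15 with scikit-learn 1.9.0 gave nearest cells from 15 components of 2000 variable genes. Promoters are from RefSeq.

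The members and gene lists were chosen with earlier results of these data known, and the filter to 416 members and the interferon promoters were added after the data had been seen. Genes named by rule were the 14 highest and 10 lowest called genes with at least 50 CPM and 1 direction in all libraries, up to 4 genes per list, and the 5 highest and 5 lowest genotype ratios. Other genes of the lists, and those shown by leading gene, were named after their values were seen. Some single genes are not reported here.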

Additional observations from a re-analysis of the deposited data

How the results depend on the processing

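The library block paired members with other cells of the same library. Over all 450 members, 1062 genes were called, and 602 were called with DESeq2, 489 with no replicate block, 496 with cells thinned to 2000 UMIs and 745 to 884 with 1 library left out. For the 416 microglial members, 746 genes were called, and 622 were called with other cells matched on depth, 375 with DESeq2, 470 without hCD33m, 610 without hCD33M and 509 without Control. Cell shares in hCD33m, hCD33M and Control moved to 3.97%, 2.89% and 3.97% among cells with at least 2000 UMIs, to 1.23%, 0.863% and 1.15% at 6 UMIs and 8 per 10000, to 5.20%, 3.44% and 4.86% at 3 UMIs and 4 per 10000, to 4.48%, 2.63% and 3.80% with no exclusion genes and to 0.905%, 0.450% and 1.06% when thinned to 2000 UMIs, and that of hCD33m to 2.52% when thinned to 4000. Genes past the size rule numbered 411, 411 and 335 for hCD33m over Control, hCD33M over Control and hCD33m over hCD33M, against 157, 169 and 151 at 2-fold and 176, 209 and 150 at 50 CPM. The share of members among nearest cells in hCD33m, hCD33M and Control was 10.7%, 9.54% and 10.3% with 10 neighbours, 15.7%, 13.6% and 14.6% without thinning and 6.97%, 5.99% and 7.07% for microglial members, and 8.53% in hCD33m with 30 components. The fold changes of the rule genes left out in turn ranged, with 1 library left out, from 1.72 to 2.0 for Lpl, 1.22 to 1.59 for Tcim, 1.77 to 2.14 for Emp3 and 2.35 to 2.48 for Ifi27l2a. Directions turned for Nr4a1 (-0.23) and Ccr2 (-0.82) in microglial members, for Egr3 with DESeq2 (-0.94 over all members, -0.84 over microglial members) and for Top2a with the stricter rule (-0.12) and without hCD33m (-0.58 over all members, against 4.17 without Control, -0.48 over microglial members). With no replicate block Klf2 (adjusted p 0.193) and Klf4 (0.83) did not pass in edgeR. Of 819 values of 57 named genes 770 kept their direction and side of the threshold, as did 271 of 301 values of 63 named genes in microglial members. Counted by gene, fewer held throughout. Over all members 52 of the 57 genes were called, and 23 of these were tested and kept their call in all 15 alternatives. In microglial members 53 of the 63 genes were called, and 36 of these did so in all 5 alternatives. The cause was not tested. Depth limits the low genes most, and genes found in few members rest on few cells.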
